A study of Homo sapiens with 10 samples.

Results

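Replication-dependent histone genes encode the bulk of the histones that package newly copied DNA, and 64 of the 20098 protein-coding genes of the GENCODE annotation of hg19 (autosomes and X) were of this kind. They were taken by name: the linker histone genes H1-1 to H1-6 and every H2AC, H2BC, H3C and H4C gene with a number. They comprised 6 H1, 16 H2A, 16 H2B, 13 H3 and 13 H4 genes, of which 51 lay on chromosome 6, 12 on chromosome 1 and 1, H4C16, on chromosome 12. HIST1H4B and HIST2H2AA3, which the annotation keeps under older names, fell outside the rule, and neither had a peak within 1 kb of its start.

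The measurement was ChIP-seq, which sequences the DNA recovered with a protein from crosslinked chromatin, in HEK293, an established human embryonic kidney line. ZMYND8 is a chromatin reader whose PHD finger, bromodomain and PWWP domain contact histone tails and DNA. In the ZMYND8 ChIP the antibody was raised to the protein and the cells were Flp-In T-REx HEK293 with 3×FLAG-ZMYND8, WT or N228F, the labels not saying which. In the FLAG-ZMYND8 ChIP, full-length 3×FLAG-ZMYND8 was induced with 10 nM doxycycline and recovered with anti-FLAG. Chromatin of both was cut with micrococcal nuclease. Each target had 2 replicates and 1 deposited peak list, of 15086 peaks for ZMYND8 and 63690 for FLAG-ZMYND8, so the lists differ in size as well as in antibody and cells. The lists carry neither replicates nor read counts: depth is unknown, no difference below could be set against a spread between replicates, and intervals are 95% Wilson intervals that cover counting error only. The input DNA and the ChIP samples of H3K27ac and H3K14ac did not enter the counts and were not analysed.

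As background, these genes are short, have no introns in their coding part and are transcribed chiefly in S phase. Many H2A and H2B genes lie head to head and share the stretch between their starts. Their mRNAs end in a conserved stem-loop in place of a poly(A) tail, which SLBP binds, and NPAT, a target of cyclin E and CDK2, activates their transcription in nuclear histone locus bodies. All 64 genes held the stem-loop within 150 bp of a coding end. In the window from 250 bp before to 50 bp after the start, TATAAA was found on either strand in 43 of the 64 (67.2%, against 10.9% of all protein-coding promoters), CCAAT in 55 (85.9% against 35.8%) and the octamer ATTTGCAT in 24 (37.5% against 1.67%). The octamer was found in 12 H2A, 11 H2B and 1 H3 gene and in none of the H1 or H4 windows. These matches describe the letters and not sites in use. Within 1 kb on either side of the start the members had a median GC content of 49.0%, against 55.0% for all protein-coding genes.

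The sequences below show what the peaks lay on. For the gene of each class with the widest ZMYND8 peak within 1 kb, the coding stretch with a peak of each list is given in the gene's direction, with capitals for the bases under both peaks and up to 20 coding bases on either side in lower case. The stretches are at chr6:26056127-26056320 (H1-2, minus strand), chr6:27805728-27805920 (H2AC15, minus), chr6:27775431-27775513 (H2BC13, minus), chr6:27777852-27778138 (H3C10, plus) and chr6:26021907-26022181 (H4C1, plus) of hg19.
H1-2: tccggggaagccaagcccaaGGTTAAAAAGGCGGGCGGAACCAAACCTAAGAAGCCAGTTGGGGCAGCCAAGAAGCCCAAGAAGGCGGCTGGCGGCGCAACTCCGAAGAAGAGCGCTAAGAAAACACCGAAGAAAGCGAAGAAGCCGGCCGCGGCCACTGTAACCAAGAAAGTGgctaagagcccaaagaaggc
H2AC15: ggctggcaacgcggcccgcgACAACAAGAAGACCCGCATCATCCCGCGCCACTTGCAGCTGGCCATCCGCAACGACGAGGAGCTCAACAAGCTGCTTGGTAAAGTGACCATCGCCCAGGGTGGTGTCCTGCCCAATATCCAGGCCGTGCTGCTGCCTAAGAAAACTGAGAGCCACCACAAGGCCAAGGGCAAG
H2BC13: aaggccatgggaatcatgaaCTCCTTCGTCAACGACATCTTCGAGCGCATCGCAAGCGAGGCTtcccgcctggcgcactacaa
H3C10: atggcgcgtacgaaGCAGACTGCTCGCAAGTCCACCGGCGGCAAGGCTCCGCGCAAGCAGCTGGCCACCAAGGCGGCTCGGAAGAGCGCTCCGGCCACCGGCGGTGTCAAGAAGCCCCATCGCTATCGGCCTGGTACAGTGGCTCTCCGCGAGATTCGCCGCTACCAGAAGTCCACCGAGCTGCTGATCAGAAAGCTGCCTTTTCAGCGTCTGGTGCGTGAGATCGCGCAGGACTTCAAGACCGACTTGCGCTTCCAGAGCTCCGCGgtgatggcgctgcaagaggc
H4C1: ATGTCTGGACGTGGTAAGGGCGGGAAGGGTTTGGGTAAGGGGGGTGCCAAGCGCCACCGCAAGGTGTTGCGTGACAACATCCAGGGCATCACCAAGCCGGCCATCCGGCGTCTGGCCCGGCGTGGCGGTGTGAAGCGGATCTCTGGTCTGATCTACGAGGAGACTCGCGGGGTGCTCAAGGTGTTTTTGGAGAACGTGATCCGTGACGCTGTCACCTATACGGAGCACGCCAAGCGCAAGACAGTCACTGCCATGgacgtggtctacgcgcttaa
The bases under both peaks began at the start codon in H4C1, 14 bases after its first base in H3C10 and 191, 217 and 356 bases after it in H2BC13, H2AC15 and H1-2. The overlaps of the lists spanned 255, 253, 43, 173 and 154 coding bases in that order.

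The 3′ stem-loops of the same genes, which are transcribed after the stop codon, are shown with the stem-loop in capitals and 7 bases on either side.
H1-2: cccaaaaGGCTCTTTTCAGAGCCaccactg
H2AC15: ccaaaaaGGTTCTTTTCAGAGCCacctact
H2BC13: acccaaaGGCTCTTTTCAGAGCCactcact
H3C10: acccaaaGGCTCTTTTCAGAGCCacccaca
H4C1: aaccaaaGGCCCTTTTCAGGGCCgcccaac
Their middles lay 718, 482, 437, 472 and 388 bp after the TSS.

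The last sequences are the stretches between the starts of the 3 head-to-head H2A and H2B pairs with the most peaks near both genes. They are read on the plus strand, with the 3 promoter motifs named above and their reverse complements in capitals, at chr1:228645575-228645803 (H2AC25 and H2BC26), chr6:27114635-27114884 (H2BC12 and H2AC12) and chr6:27775708-27775950 (H2BC13 and H2AC13).
H2AC25/H2BC26: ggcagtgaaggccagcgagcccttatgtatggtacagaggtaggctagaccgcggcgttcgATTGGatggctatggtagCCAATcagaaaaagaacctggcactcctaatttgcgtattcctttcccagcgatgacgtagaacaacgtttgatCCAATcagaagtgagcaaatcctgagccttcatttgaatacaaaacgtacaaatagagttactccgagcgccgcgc
H2BC12/H2AC12: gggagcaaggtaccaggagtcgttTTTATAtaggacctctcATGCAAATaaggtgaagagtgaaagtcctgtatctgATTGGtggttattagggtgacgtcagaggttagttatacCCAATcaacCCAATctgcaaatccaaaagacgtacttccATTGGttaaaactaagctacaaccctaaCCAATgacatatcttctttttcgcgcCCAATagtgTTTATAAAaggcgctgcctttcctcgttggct
H2BC13/H2AC13: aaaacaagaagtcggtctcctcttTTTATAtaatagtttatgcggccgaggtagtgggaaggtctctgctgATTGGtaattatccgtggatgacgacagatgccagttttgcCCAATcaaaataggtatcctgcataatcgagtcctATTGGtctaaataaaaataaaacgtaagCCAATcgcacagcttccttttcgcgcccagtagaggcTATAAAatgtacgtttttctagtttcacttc
Counting overlapping matches, CCAAT occurred 3, 6 and 4 times and TATAAA 0, 3 and 2 times in these stretches, and the octamer once, between H2BC12 and H2AC12.

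Counted from the TSS, the shares of the 64 genes with a peak were close to those of all protein-coding genes. A gene was counted when the midpoint of a peak lay within the window around its TSS, the annotated 5′ end. Within 1 kb, 17 of the 64 had a ZMYND8 peak (26.6%, 17.3 to 38.5%), against 28.5% of all protein-coding genes. A FLAG-ZMYND8 peak was present at 31 (48.4%, 36.6 to 60.4%), against 49.3%, and peaks of both lists at 14 (21.9%), against 22.7%. Within 3 kb the counts were 25 for ZMYND8 (39.1% against 34.1%), 38 for FLAG-ZMYND8 (59.4% against 58.1%) and 24 for both (37.5% against 29.4%). All 6 background shares lay inside the members' 95% intervals, which ran from 26.7 to 49.7% for both lists within 3 kb. Counted from the start codon, 25 members (39.1%, 28.1 to 51.3%) had a ZMYND8 peak within 3 kb, against 27.9% of all genes. The members' count was the same from the TSS, so the wider gap came from the fall of the background share from 34.1%. Several members share peaks: 14 distinct ZMYND8 and 30 distinct FLAG-ZMYND8 peaks made up the counts within 1 kb, of which 3 and 13 lay near more than 1 member.

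**Figure D1:**
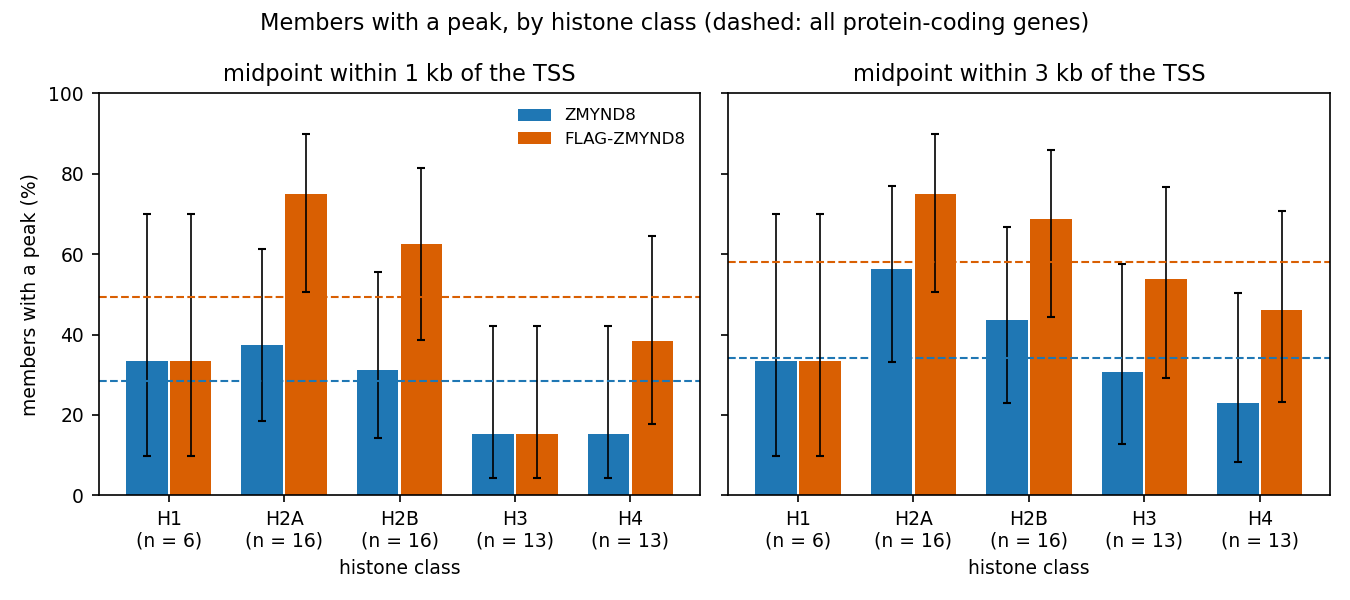
Members with a peak midpoint within 1 kb (left) or 3 kb (right) of the TSS, in percent of each histone class, with 95% Wilson intervals as bars and the share of all protein-coding genes as dashed lines. Within 1 kb the FLAG-ZMYND8 share was 75% for H2A and 15.4% for H3, and 49.3% for all genes.

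By class, the counts ranged widely. H2A and H2B, which pair as dimers in the nucleosome, had the most genes with a FLAG-ZMYND8 peak within 1 kb: 12 of 16 H2A genes (75%, 50.5 to 89.8%) and 10 of 16 H2B genes (62.5%, 38.6 to 81.5%). H3 and H4, which form the central tetramer, had 2 of 13 (15.4%, 4.33 to 42.2%) and 5 of 13 (38.5%, 17.7 to 64.5%). The linker histone H1 genes, whose products bind DNA where it enters the nucleosome, had 2 of 6. ZMYND8 peaks lay within 1 kb of 6 H2A, 5 H2B, 2 H3, 2 H4 and 2 H1 genes. Within 3 kb, FLAG-ZMYND8 peaks were found near 12 H2A, 11 H2B, 7 H3, 6 H4 and 2 H1 genes, and ZMYND8 peaks near 9, 7, 4, 3 and 2. The H2A interval for FLAG-ZMYND8 within 1 kb lay above that of H3 and overlapped that of H4. These intervals take genes as independent, which genes that share a peak are not, so no difference between classes is drawn from them. Of the H2A genes counted within 1 kb, H2AC6, H2AC17 and H2AC20 had only a FLAG-ZMYND8 peak on a neighbour, H2BC4, H2BC17 and H2AC21. Another protein-coding start lay within 1 kb of 25 members, and 18 of these (72.0%) had a FLAG-ZMYND8 peak within 1 kb, against 67.8% of the 3526 protein-coding genes with so close a neighbour. Of the 39 members without one, 13 (33.3%) had such a peak, against 45.3% of 16572 genes. For ZMYND8 the same counts were 9 of 25 (36% against 43.1%) and 8 of 39 (20.5% against 25.4%). The part of close neighbours in the difference between classes was not tested. At H3C13, H3C14, H3C15, H4C14, H4C15, H2AC19 and H2BC18, whose sequence largely recurs elsewhere, absence of a peak and absence of placed reads cannot be told apart. The same goes for most of the first 500 bp of H4C11 and H2AC14. These genes fall unevenly on the classes, and their part was not tested either. Of the 2 H3 genes with a FLAG-ZMYND8 peak within 1 kb, H3C12 was counted for a peak on H2BC17.

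Counting a gene only when a peak lay over its own coding sequence, by at least 1 bp, leaves out peaks that lie only on a neighbour. By this count 25 of the 64 genes (39.1%) had a FLAG-ZMYND8 peak, against 32.5% of all protein-coding genes, and 14 (21.9%) a ZMYND8 peak, against 15.1%. The coding sequences compared are of unequal length, with medians of 390 bp in the members and 1364.5 bp in all genes, counting the coding bases of all transcripts. Peaks of both lists lay over 12 members. H2A and H2B had 9 of 16 genes each with a FLAG-ZMYND8 peak, H4 had 3 of 13, and H3 and H1 had 2 of 13 and 2 of 6. For ZMYND8 the counts were 5 H2A, 3 H2B, 2 H3, 2 H4 and 2 H1 genes. A wide peak can still be counted for neighbouring genes, as the ZMYND8 peak of 1027 bp was for both H2BC13 and H2AC13. With the peak midpoint required in the coding sequence, 8 members had a ZMYND8 and 24 a FLAG-ZMYND8 peak.

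The genes lie in groups whose neighbouring members are at most 300 kb apart, and the counts varied along them. The largest, chr6:25723625-26285866, held 30 members, of which 8 had a ZMYND8 and 12 (40%) a FLAG-ZMYND8 peak within 1 kb. The group at chr6:27093676-27115341 held 5 members, H2BC11, H2AC11, H4C9, H2BC12 and H2AC12, and all 5 had a FLAG-ZMYND8 peak and 2 a ZMYND8 peak. In the group at chr6:27775257-27861669, 9 of 16 members had a FLAG-ZMYND8 and 4 a ZMYND8 peak. On chromosome 1, the group at chr1:149754245-149859515 had 2 of 10 members with a FLAG-ZMYND8 peak and 1 with a ZMYND8 peak. The 2 members, H2AC20 and H2AC21, were counted for the same FLAG-ZMYND8 peak of 391 bp. The group includes H2BC18, H3C13, H3C14, H3C15, H2AC19, H4C14 and H4C15, where a missing peak cannot be told from missing placed reads. The pair in the group at chr1:228622478-228650805, H2AC25 and H2BC26, had peaks of both lists. H4C16 on chromosome 12 had a FLAG-ZMYND8 peak of 298 bp centred 272 bp after its start, in the coding sequence, and a ZMYND8 peak of 1020 bp centred 1061 bp after it. By chromosome, 14 of 51 members on chromosome 6 (27.5%) had ZMYND8 peaks and 26 (51.0%) FLAG-ZMYND8 peaks, against 30.0% and 55.0% of all protein-coding genes of that chromosome. For the 12 members on chromosome 1, which include those genes of recurring sequence, the counts were 3 and 4, against 26.2% and 46.7% of its genes. Of the 8 non-histone protein-coding genes inside the groups, ZMYND8 peaks were near 1 and FLAG-ZMYND8 peaks near 4. The ZMYND8 peak, at ENSG00000282988, is the one counted for H2AC7. The FLAG-ZMYND8 peaks at ENSG00000282988 and BOLA1 were also counted for members, and those at SLC17A3 and TRIM38 were 167 bp wide, the smallest width of the list.

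**Figure D2:**
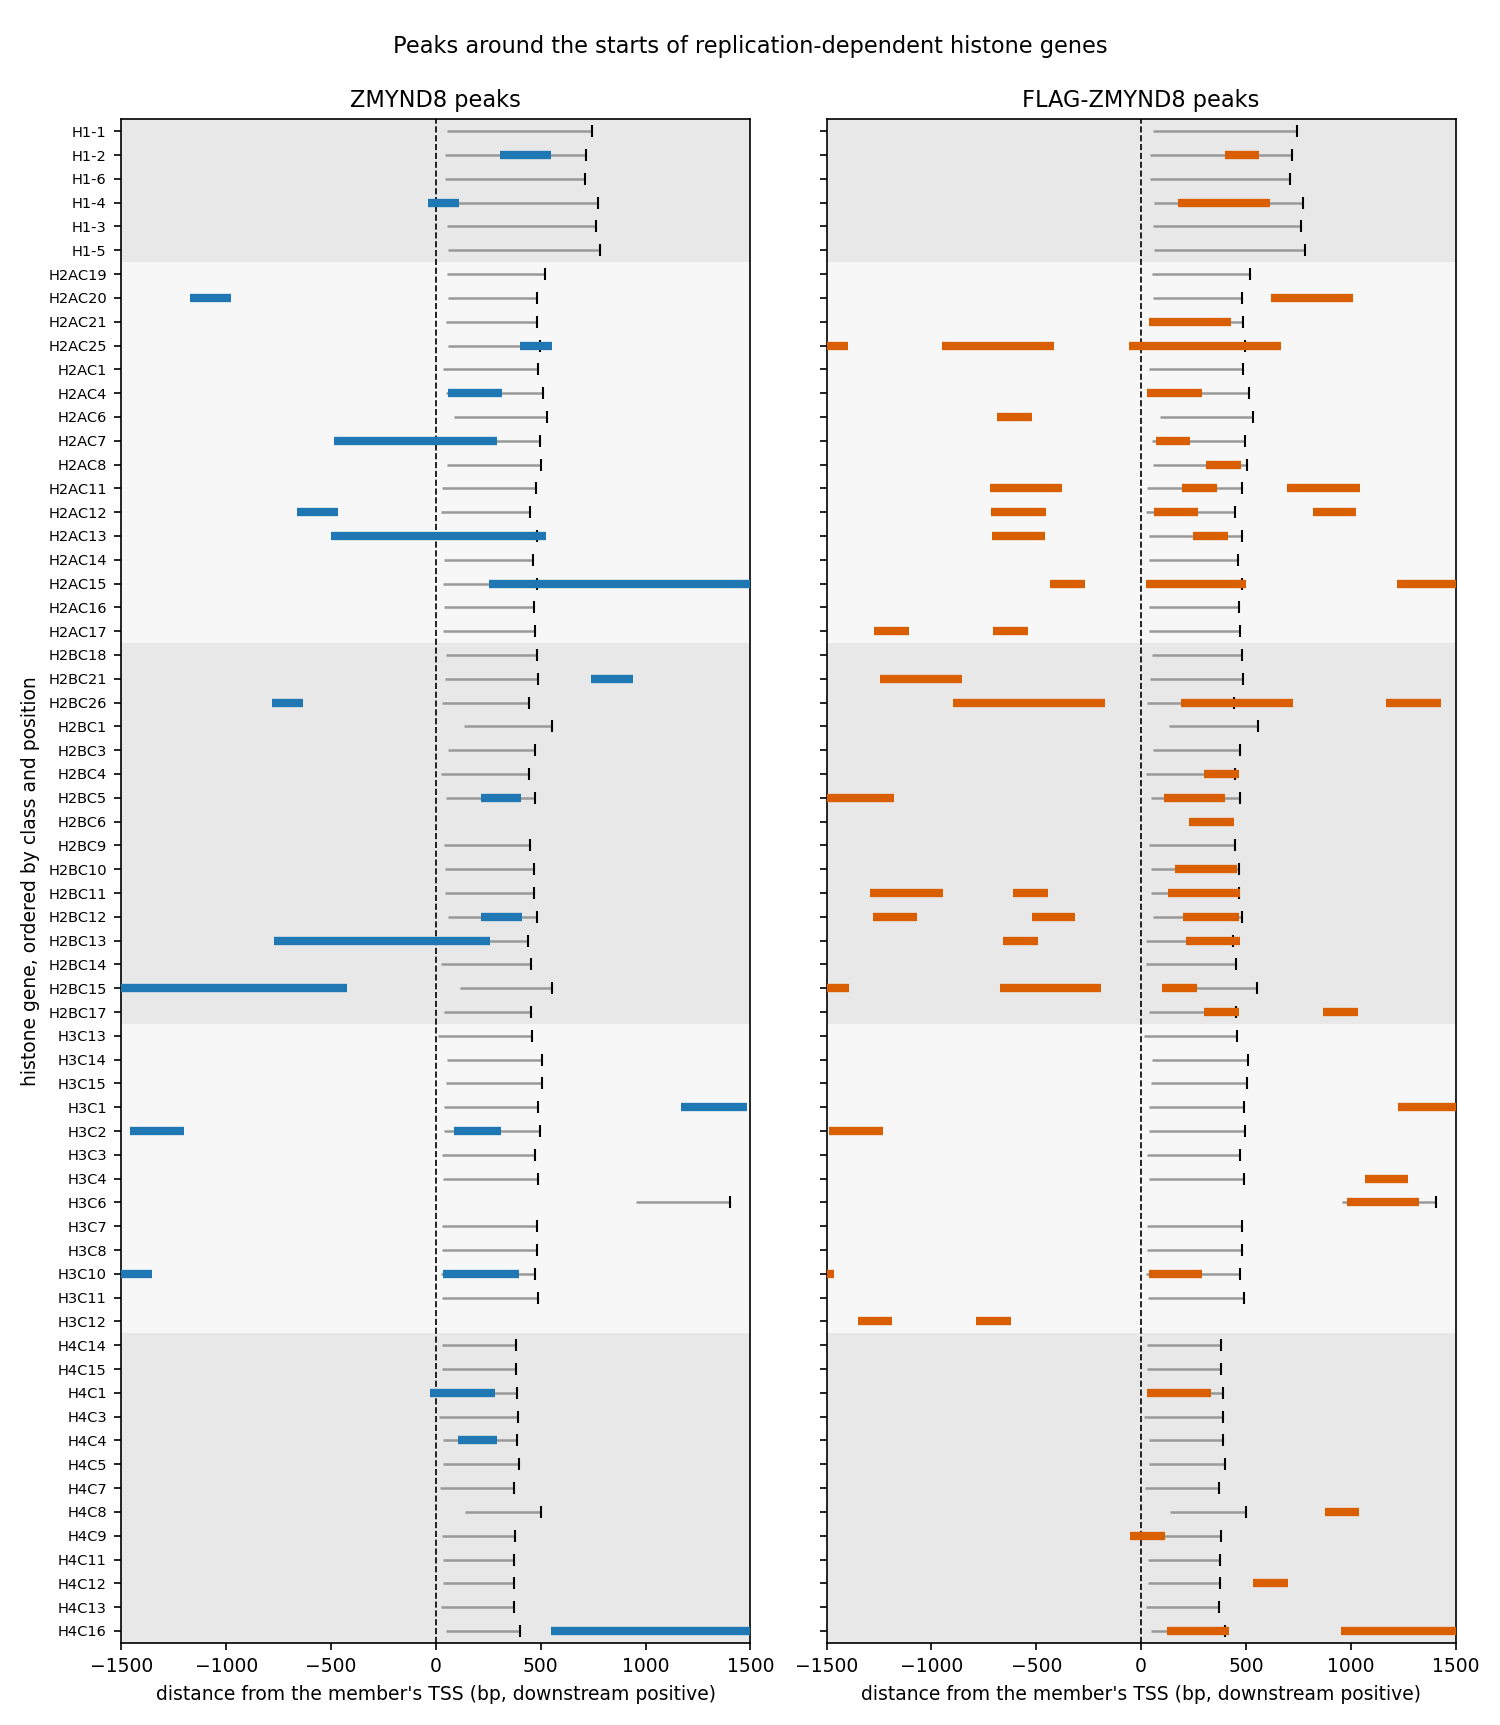
Peaks of each list around the TSS of each of the 64 genes, by class, with distance from the TSS in bp along the horizontal axis. Coloured bars are peaks, cut at 1500 bp, grey lines run from the start codon to the stem-loop, and black ticks mark the stem-loop. Most peaks close to a gene lie on its grey line, to the right of the dashed TSS.

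Most peaks lay downstream of the start. All 30 distinct FLAG-ZMYND8 midpoints within 1 kb were downstream of the nearest member TSS (100%, 88.6 to 100%), against 62.5% of the FLAG-ZMYND8 midpoints within 1 kb of any protein-coding start. Of the 14 ZMYND8 midpoints, 13 were downstream (92.9%, 68.5 to 98.7%), against 69.3%. The exception was the 776 bp peak at H2AC7, which reached from 484 bp before to 291 bp after that start. The median midpoint lay 320 bp downstream for FLAG-ZMYND8 (quartiles 239.5 and 393 bp) and 206.5 bp for ZMYND8 (143 and 400.25 bp). Over all protein-coding genes the medians were 171 and 166 bp, with lower quartiles upstream of the start, at -270 and -79 bp. In the histone genes 23 of 30 FLAG-ZMYND8 and 8 of 14 ZMYND8 midpoints fell inside a coding sequence, and 4 and 1 lay past the 3′ end of the gene. Since these genes have their coding sequence next to the start, a midpoint at the same distance can be coding here and intronic in a longer gene. Among the 39 members without a close neighbour all 13 FLAG-ZMYND8 and all 8 ZMYND8 midpoints were downstream, against 61.5% and 69.1% in protein-coding genes without one.

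For FLAG-ZMYND8 the same was seen without midpoints, by the bases that peaks covered. A FLAG-ZMYND8 peak covered some of the 250 bp upstream of the TSS in 4 of 64 members (6.25%), against 21.9% of all protein-coding genes. It covered some of the first 250 bp after it in 21 (32.8% against 27.6%) and of the next 250 bp in 23 (35.9% against 29.3%). For ZMYND8 the upstream count, 5 (7.81% against 12%), was nearer to the background. The ZMYND8 counts downstream were 11 in the first 250 bp (17.2% against 16.2%) and 13 in the next (20.3% against 14.9%). No interval was computed for these bins, so no difference is drawn from the small ZMYND8 counts. Counted from the start codon, the upstream FLAG-ZMYND8 count was 8 (12.5% against 20.1%), and both bins downstream held 21 (32.8% against 22.7% and 19.6%). Without a close neighbour, 1 of 39 members had a FLAG-ZMYND8 peak in the upstream 250 bp (2.56% against 19.7% of such genes) and 2 a ZMYND8 peak (5.13% against 10.6%). At the TSS itself 2 members lay under a FLAG-ZMYND8 peak (3.13% against 12.6%) and 5 under a ZMYND8 peak (7.81% against 8.81%). At 250 bp downstream 19 (29.7% against 20.2%) and 10 (15.6% against 11.1%) did. The members' windows of 1 kb on either side were covered to 7.90% by FLAG-ZMYND8 and to 5.37% by ZMYND8 peaks, against 11.8% and 5.70% over all genes.

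**Figure D3:**
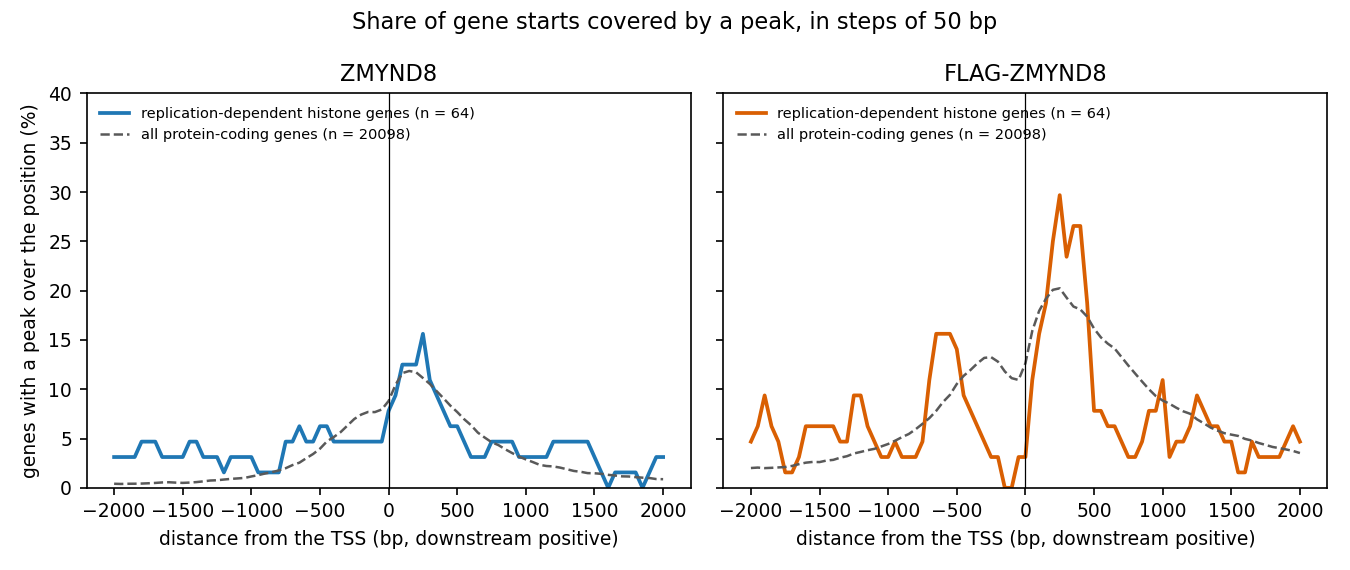
Percent of gene starts with a peak over each position from 2000 bp upstream to 2000 bp downstream, for the 64 histone genes (solid) and all 20098 protein-coding genes (dashed). For FLAG-ZMYND8 the histone genes stood at 3.13% at the TSS and 29.7% at 250 bp downstream, where all genes stood at 12.6% and 20.2%; the rise left of the start includes peaks on head-to-head partners.

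In head-to-head H2A and H2B pairs both promoters lie between the coding sequences. There were 10 such pairs with starts 170 to 251 bp apart. A FLAG-ZMYND8 peak lay over both coding sequences in 5 pairs, over 1 of them in 2 and over neither in 3, and a FLAG-ZMYND8 peak reached into the stretch between the starts in 1 pair. ZMYND8 peaks lay over both coding sequences in 1 pair, over 1 in 3 and over neither in 6, and reached into the stretch between in 1 pair.

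At H2BC12 and H2AC12, 1 FLAG-ZMYND8 peak of 267 bp lay over H2BC12, from 201 to 467 bp after its start, and another of 208 bp over H2AC12, from 63 to 270 bp after its start. The 250 bp between them, printed above, held no peak of either list. A ZMYND8 peak of 198 bp lay within the H2BC12 peak, 215 to 412 bp after the start.
At H2BC13 and H2AC13 the FLAG-ZMYND8 list again had a peak on each gene, of 256 and 167 bp. The ZMYND8 list had a single peak of 1027 bp, which ran from 256 bp inside H2BC13 across the stretch between the starts and along H2AC13 to 526 bp after its start, just past that gene's 3′ end, and was the widest ZMYND8 peak centred within 1 kb of an H2B start.
At H2AC25 and H2BC26 lay the widest FLAG-ZMYND8 peak within 1 kb of any H2A or H2B start. It measured 728 bp and ran from 59 bp before to 668 bp after the H2AC25 start, and a second peak, of 535 bp, ran from 188 to 722 bp after the H2BC26 start. A ZMYND8 peak of 151 bp, the smallest width in its list, lay 402 to 552 bp after the H2AC25 start.

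Single genes gave the following peaks, with widths compared among midpoints within 1 kb of the start. In H1, the ZMYND8 peak at H1-2 was 245 bp wide, 307 to 551 bp after the start, and the FLAG-ZMYND8 peak there was 167 bp wide, the smallest width of its list, 398 to 564 bp after it. At H1-4 the FLAG-ZMYND8 peak was 440 bp wide, 174 to 613 bp after the start, and the ZMYND8 peak of 151 bp lay across the start, ending before the FLAG-ZMYND8 peak began. The peaks of the lists thus overlapped at H1-2 and lay side by side at H1-4.
In H2A, the widest ZMYND8 peak, 1288 bp at H2AC15, began 253 bp after the start and reached 1540 bp, well past the stem-loop at 482 bp. A FLAG-ZMYND8 peak of 482 bp covered the gene itself, from 21 to 502 bp. Of the H2A genes, H2AC4 had peaks of 259 and 262 bp that nearly coincided, centred 188 and 160 bp after the start.
In H3, H3C10 carried the widest peaks of both lists within 1 kb, 364 bp for ZMYND8 and 253 bp for FLAG-ZMYND8, from 33 and 37 bp after the start. The other H3 gene with a ZMYND8 peak within 1 kb was H3C2, 226 bp wide and 85 to 310 bp after the start, where the nearest FLAG-ZMYND8 peak, on H2AC4, was centred at -1359 bp.
In H4, the widest peaks of both lists within 1 kb lay on H4C1, 313 bp for ZMYND8 and 306 bp for FLAG-ZMYND8, centred 128 and 181 bp after the start. H4C4 had a ZMYND8 peak of 188 bp, 105 to 292 bp after the start, and no FLAG-ZMYND8 peak within 3 kb.
The remaining member with a ZMYND8 and no FLAG-ZMYND8 peak within 1 kb was H2BC21, whose ZMYND8 peak of 198 bp was centred 840 bp after the start and past the stem-loop. Such genes numbered 3 of 64 (4.69%), against 5.85% of all protein-coding genes, and 17 (26.6%) had a FLAG-ZMYND8 peak alone, against 26.6%.

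The peaks of the 2 lists coincided at some of the genes. Of the 14 ZMYND8 peaks within 1 kb, 10 (71.4%) met a FLAG-ZMYND8 peak by at least 1 bp, against 59.9% of the ZMYND8 peaks within 1 kb of any protein-coding start. In the other direction, 11 of the 30 FLAG-ZMYND8 peaks (36.7%) met a ZMYND8 peak, against 28%. The histone peaks were of ordinary width, with medians of 235.5 bp for ZMYND8 and 233 bp for FLAG-ZMYND8 against 238 and 259 bp near all protein-coding starts. At the smallest width of their list, 151 or 167 bp, were 2 of the 14 ZMYND8 peaks (14.3% against 31.9%) and 12 of the 30 FLAG-ZMYND8 peaks (40% against 29.2%).

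No peak of either list lay within 3 kb of 25 members (39.1%), against 37.2% of all protein-coding genes. The 3 genes known for expression in testis, H1-6, H2AC1 and H2BC1, were among them, and the last 2 form a head-to-head pair. So were the linker histone genes H1-1, H1-3 and H1-5, and H2AC14, H2AC16, H2BC3, H2BC9, H2BC14, H3C3, H3C7, H3C11, H4C3, H4C7, H4C11 and H4C13 on chromosome 6. The other 7, H2BC18, H3C13, H3C14, H3C15, H2AC19, H4C14 and H4C15, lay in the group at chr1:149754245-149859515, where the genome holds near-identical copies. Exact 50-base words of their windows of 1 kb on either side recurred elsewhere in the genome in 64.0% (H2BC18) to 100% (H3C14, H3C15, H4C14 and H4C15) of positions. Over this window no other member exceeded 23.6%, the value of H4C11. In the first 500 bp after the start, where many peaks lay, some other members had more. The share there was 69.4% at H4C11 and H4C12, 62.7% at H2AC13 and H2AC14 and 56.5% at H2BC12. Of these, H4C12, H2AC13 and H2BC12 had a FLAG-ZMYND8 peak within 1 kb, and H4C11 and H2AC14 had no peak within 3 kb. The medians were 3.02% for the 24 members with peaks of both lists within 3 kb, 2.61% for the 14 with FLAG-ZMYND8 alone and 3.48% for the 25 with neither. Reads from such copies cannot be placed at a single site by sequence alone. Absence of a peak and absence of placed reads therefore cannot be told apart at these 7 genes, nor in most of the first 500 bp of H4C11 and H2AC14. Of the 46 members with at most 10% repeated words, 11 (23.9%) had ZMYND8 and 24 (52.2%) FLAG-ZMYND8 peaks within 1 kb.

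**Figure D4:**
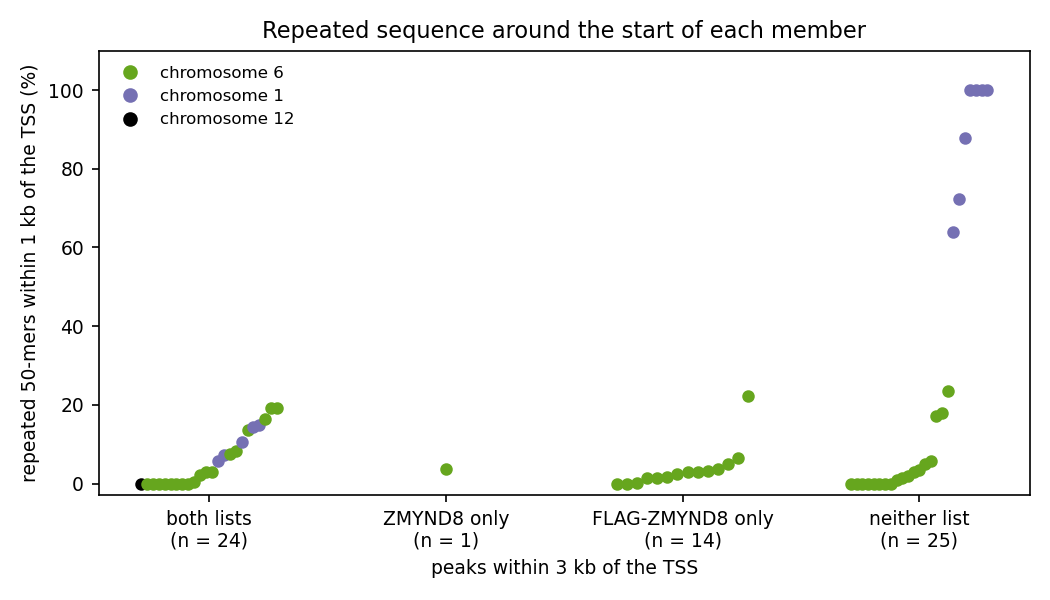
Percent of exact 50-base words within 1 kb of each TSS that occur more than once in the genome, for the members grouped by the peaks within 3 kb of their start. Points are single genes, coloured by chromosome; the 7 genes above 50% are all on chromosome 1 and had no peak of either list.

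In 3 members the annotated start lies far from the start codon, at 11737 bp for H2BC6, 2314 bp for H3C12 and 956 bp for H3C6, and the windows follow the annotated start. The FLAG-ZMYND8 peak counted for H2BC6, 213 bp wide and centred 336 bp after that start, is therefore not on its coding sequence, and the FLAG-ZMYND8 peak counted for H3C12, centred at -703 bp, lies on H2BC17. At H3C6 a FLAG-ZMYND8 peak of 346 bp lay over the coding sequence, centred 1153 bp after the annotated start and so outside the 1 kb window. H2AC7 shares its annotated start with the gene model ENSG00000282988, and their peaks are the same.

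Genes that act on the histone genes or their products were counted the same way, from a list of 35. Within 1 kb, ZMYND8 peaks lay near 23 (65.7%) and FLAG-ZMYND8 peaks near 27 (77.1%), against the shares of 28.5% and 49.3% given above. The list was chosen by hand and no set matched for expression was counted, so the gap cannot be called particular to these genes. Among 14 regulators of transcription the counts were 7 and 11. NPAT had 2 FLAG-ZMYND8 peaks, the wider of 321 bp, and no ZMYND8 peak, while HINFP, which binds H4 promoters, had a ZMYND8 peak of 736 bp and no FLAG-ZMYND8 peak. Among 11 genes of histone pre-mRNA processing and turnover the counts were 7 and 8. SLBP had peaks of 1202 bp for ZMYND8 and 711 bp for FLAG-ZMYND8, and ERI1, an exonuclease that trims the stem-loop end, had neither. Among 10 histone chaperones and assembly factors the counts were 9 and 8. RBBP4, a subunit of the CAF-1 assembly factor, had a ZMYND8 peak of 1230 bp and a widest FLAG-ZMYND8 peak of 585 bp, and HIRA, the chaperone of H3.3, had neither. A further 25 histone genes, mostly variants made outside S phase or in the germline, had ZMYND8 peaks in 9 cases (36%) and FLAG-ZMYND8 peaks in 10 (40%). Of these, H3-3B had a ZMYND8 peak of 809 bp and a widest FLAG-ZMYND8 peak of 871 bp, and H2AZ1 had 2 FLAG-ZMYND8 peaks, the wider of 322 bp, and no ZMYND8 peak.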

How the data were processed

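According to the submitters' processing notes and the methods, reads were mapped to hg19 with BWA (version 0.7) and profiles made with HOMER. The peak caller's settings and the way replicates were combined are not given in the sources used here. Each deposited list has 6 columns. As deposited, the score is 1 for every peak and was not used, and peaks were compared by width. Positions were converted to count from 1. TSSs, coding ends and transcript starts came from GENCODE release 44 on GRCh37, the same build, and sequences from that genome. Members and lists were chosen with earlier results of these data known. Named genes were, by class, those with the widest peak of each list within 1 kb, those with ZMYND8 alone within 1 kb or no peak within 3 kb, the testis genes, and the 3 head-to-head pairs with the most peaks; the others were named as examples after their values were seen. Bins of 250 bp and the count over coding sequences were added after the data were seen. No test was run, since the lists hold no replicates. The counting was tested on simulated lists. Python 3.11.15 was used with numpy 2.4.6, scipy 1.17.1 and matplotlib 3.10.9.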

Additional observations from a re-analysis of the deposited data

How the results depend on the processing

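Of 68 alternatives, 52 left a count within 1.5 times its value, or a share inside its interval, and 16 did not. Keeping, in both lists, only peaks wider than the smallest width lowered the members with a FLAG-ZMYND8 peak within 1 kb from 31 to 20, those with both lists from 14 to 9, those with FLAG-ZMYND8 over the coding sequence from 25 to 16 and the FLAG-ZMYND8 peaks that overlap a ZMYND8 peak from 11 to 7. Within 1 kb, 31.3% of the members then had a FLAG-ZMYND8 peak, against 39.1% of all protein-coding genes, and within 3 kb 32.8% had a ZMYND8 peak, against 23%. The start codon in place of the TSS moved the background of ZMYND8 within 3 kb from 34.1% to 27.9%, below the members' interval, and the upstream FLAG-ZMYND8 bin from 4 to 8 members. Reducing the FLAG-ZMYND8 list to its widest 15086 peaks gave 16 members within 1 kb, 23 within 3 kb and 9 with both lists within 1 kb (25% and 35.9%, against 29.8% and 35.5% of all genes). A 500 bp window in place of 3 kb gave 13 members for ZMYND8, 25 for FLAG-ZMYND8 and 11 for both, being narrower. Leaving out members of over 10% repeated 50-base words left 11 with ZMYND8 and 9 with both within 1 kb, of 46. A reciprocal overlap of 50% left 6 shared peaks in either list. Midpoints in place of overlaps put ZMYND8 on 8 coding sequences in place of 14. Without close neighbours 100% of 8 ZMYND8 midpoints were downstream, above the interval of the value with all members; from the start codon 78.6% were, inside it. For FLAG-ZMYND8 the share was 100% in each alternative. No paired analysis was possible because neither list separates its replicates, so leaving out a replicate was not possible either. Depth is unknown, so a missing peak sets no limit on binding.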
